A study of Arabidopsis thaliana with 12 samples.

Results

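The transcriptome of the wild-type Arabidopsis rosette was described here from the 3 Col-0 plants of a series of 12 RNA-seq libraries. The members were every library with the wild-type genotype in its label, and within them the most abundant transcripts, the share of the transcript pool by function and the genes that differed most from plant to plant were described. The series compared KLU genotypes, KLU (CYP78A5) being a plant cytochrome P450 that prolongs organ growth. Col-0 was the untransformed wild type, klu was a T-DNA insertion mutant in Col-0, and 35S:KLU1 and 35S:KLU2 were lines in which the strong, nearly ubiquitous 35S promoter drove the KLU coding sequence fused to GFP, with 3 plants of each genotype. All plants were grown in short days of 8 h light and 16 h dark and were harvested 35 days after germination. The labels name a greenhouse as the place of growth and leaf as the tissue, whereas the study names a phytotron and describes whole rosettes of individual plants. Plants 1, 2 and 3 below carry the replicate numbers of the labels, which name plants and do not pair them across genotypes. Of the 33323 genes of the table, 22696 were above 0 in at least 1 Col-0 plant and 10627 were listed at 0 in all 3.

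A rosette leaf is mainly a photosynthetic organ. Antenna proteins encoded in the nucleus, the LHCA and LHCB families, bind chlorophyll and pass the energy of light to photosystems I and II. The electrons these release build ATP and NADPH, which the Calvin cycle spends on fixing carbon dioxide with rubisco, whose small subunit is encoded by the nuclear RBCS genes and whose large subunit by the chloroplast. Many other leaf transcripts follow the state of the single plant, such as its iron status, its jasmonate signalling or its defence against microbes.

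The values were FPKM, the fragments of a gene scaled to its transcript length and to the fragments mapped in the library, so levels can be compared between genes. The FPKM of a plant summed to 1110150, 1137110 and 1194280 in plants 1, 2 and 3, and 19128, 19132 and 19165 genes reached 0.5 FPKM. No read totals accompany the table. From the steps between low values, a single fragment was worth 0.933 times as much FPKM in plant 2 as in plant 1 and 1.102 times as much in plant 3, so the 3 plants were sequenced to similar depth. KLU itself was at 6.26, 5.42 and 5.53 FPKM. The rosette label was checked against markers of other tissues. Of 6 seed genes 4 were at 0 in every plant and the summed level was at most 0.20 FPKM, 3 pollen genes summed to at most 0.03 FPKM, and 6 floral regulators to between 0.52 and 1.04 FPKM. Root genes summed to between 20.2 and 23.4 FPKM, nearly all of it from PYK10, with EXPA7 at 0. Leaf cell types were present, with guard cell markers summing to between 47.1 and 48.7 FPKM and phloem markers to between 242 and 281 FPKM.

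Very few genes made up most of the pool. On average over the plants, 9 genes held 10% of all FPKM, 44 genes held 25% and 386 genes held 50%, the last number being 379, 398 and 378 in the single plants. The 114 genes at or above 1000 FPKM held 35.4% of the pool, almost as much as the 1551 genes between 100 and 1000 FPKM, which held 35.9%. The 6980 genes between 5 and 20 FPKM held 6.90%, and the 4872 genes between 0.5 and 5 FPKM only 1.002%. The share is of the nuclear genes in the table, since every gene of it lies on the 5 nuclear chromosomes, and transcripts of the organelle genomes were not analysed here.

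The most abundant transcript was LHCB1.3 (AT1G29930), an antenna protein of photosystem II, at 31744, 30799 and 32526 FPKM in plants 1, 2 and 3. RBCS1A (AT1G67090), a rubisco small subunit, followed at 21968, 20934 and 22992 FPKM. Their ranges did not overlap, and LHCB1.3 and RBCS1A were also first and second by mean in klu, 35S:KLU1 and 35S:KLU2. LHCB1.5 came next at 14825, 16060 and 16424 FPKM, and LHCB1.2 after it at 11097, 10415 and 11124 FPKM. The first 5 genes had ranges that did not overlap, LHCB5, a minor antenna protein, being the fifth at 8431, 8266 and 9194 FPKM. It overlapped with the next gene, AT5G42530, for which the table has no description, at 7349, 8575 and 9240 FPKM.

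**Figure D1:**
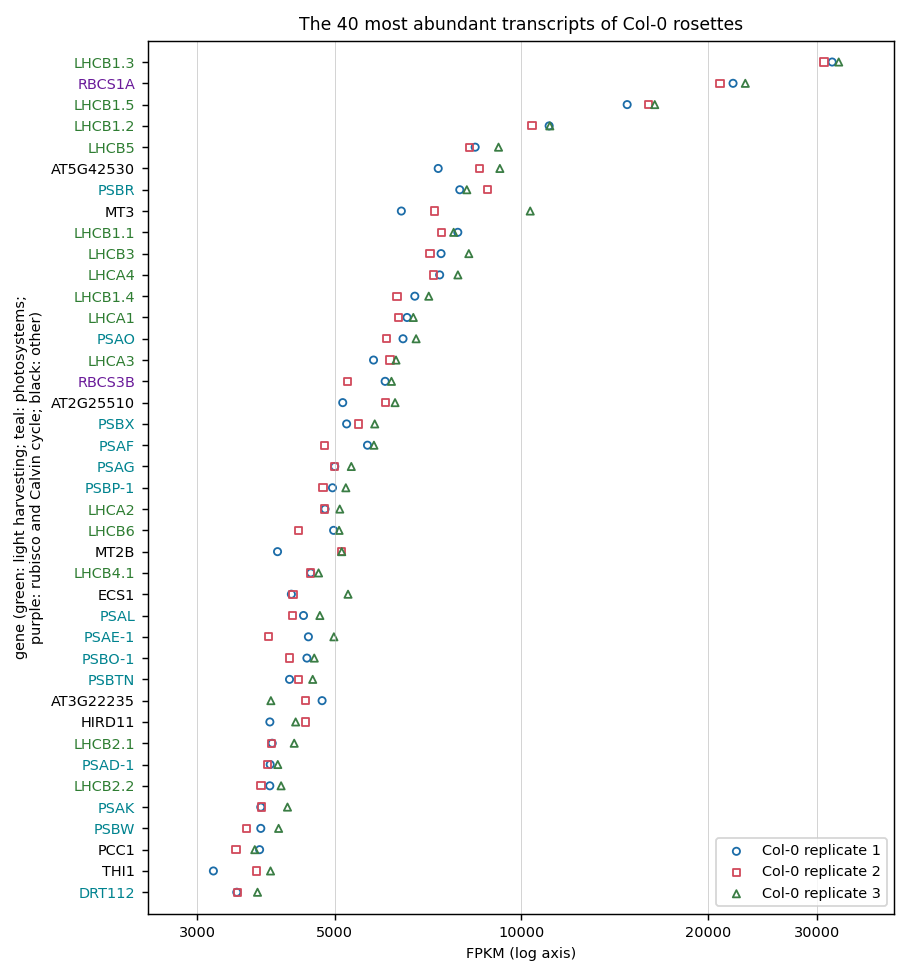
The 40 most abundant genes of Col-0 in FPKM (log axis), ordered by mean, with a point for each of the 3 plants and colours for the function class. The points of a gene lie close together except for MT3, which reached 10343 FPKM in plant 3 against 6409 in plant 1.

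Of the 40 most abundant genes, 31 belonged to photosynthesis and together held 19.9% of the FPKM. These were 15 light-harvesting genes, 14 genes of the photosystems and their electron carriers, and the 2 rubisco genes RBCS1A and RBCS3B. The photosystem II subunit PSBR was at 7962, 8833 and 8173 FPKM, the photosystem I subunit PSAO at 6449, 6057 and 6770 FPKM, and DRT112, the plastocyanin that carries electrons between the cytochrome complex and photosystem I, at 3478, 3487 and 3756 FPKM. The 9 genes outside photosynthesis were of other kinds. The metallothioneins MT3 and MT2B, small proteins that bind metal ions, were at 6409, 7242 and 10343 FPKM and at 4046, 5135 and 5136 FPKM. HIRD11, a dehydrin of a class linked to drought and cold, was at 3933, 4488 and 4328 FPKM. THI1, which makes the thiazole ring of vitamin B1, was at 3189, 3743 and 3942 FPKM. PCC1, a small protein whose transcript is known to respond to pathogens and the clock, was at 3786, 3468 and 3718 FPKM, and ECS1 at 4260, 4285 and 5257 FPKM. The last 3 of these genes, AT5G42530, AT2G25510 and AT3G22235, had no description. AT2G25510 was at 5155, 6036 and 6261 FPKM and AT3G22235 at 4775, 4493 and 3948 FPKM. The mean of the gene at rank 40 was 3574 FPKM, and that of RCA, rubisco activase, at rank 41 was 3520 FPKM.

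The next 60 genes widened the range of functions. Among the 100 most abundant, 57 genes were of photosynthesis and held 24.5% of all FPKM, with 28 photosystem genes holding 8.47%, 18 light-harvesting genes 12.03% and 11 genes of rubisco, the Calvin cycle and photorespiration 4.03%. Another 7 genes acted in redox metabolism and detoxification, 6 in the response to cold and dehydration, 3 in defence and 3 in lipid transport, and 7 genes without description held 2.35%. CAT3, a catalase that removes hydrogen peroxide, was at 2352, 2111 and 2660 FPKM. TGG1, the myrosinase that releases mustard oils from glucosinolates, was at 2038, 2015 and 2118 FPKM, and the lipid transfer protein LTP1 was at 2166, 2517 and 2416 FPKM. Cold-regulated transcripts were in this set as well. COR15A, which protects chloroplast membranes, was at 1993, 2648 and 2389 FPKM and KIN2 at 930, 1220 and 1680 FPKM. The mean at rank 100 was 1162 FPKM and that of the next gene 1159 FPKM.

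Abundant transcripts were steady from plant to plant, much as other transcripts were. The coefficient of variation (CV, the SD as a percentage of the mean) over the 3 plants had a median of 6.01% over the 100 genes, against 6.98% over the 14344 genes with a mean of at least 5 FPKM. Under 10% were 74 of the 100, and 10295 of the 14344, which is a similar share. RCA had the lowest, 1.103%, with 3547, 3476 and 3538 FPKM. Of the 100, 2 reached 20%, KIN2 at 29.7% and MT3 at 25.9%, both highest in plant 3, where 684 of the 14344 did. None of the 100 most abundant genes was among the 100 most variable of the 14344. The median spliced length of the abundant genes was 1075 bases, against 1664 for genes of at least 0.5 FPKM, so they took a smaller part of the sequenced bases than of the FPKM.

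Within 2 gene families the members were far from equal. The 4 RBCS genes summed to 33199, 30880 and 34566 FPKM, or 2.87% ± 0.139 (SD, n = 3) of the pool. RBCS1A gave 66.8% ± 0.853 of that sum, RBCS3B 17.7%, and RBCS1B and RBCS2B 7.75% and 7.74%. The 5 LHCB1 genes summed to 72307, 71010 and 74953 FPKM, 6.34% ± 0.147 of the pool, of which LHCB1.3 gave 43.6%, LHCB1.5 21.7%, LHCB1.2 14.95%, LHCB1.1 10.6% and LHCB1.4 9.22%. The divisions within each family varied little between plants, but these genes are close copies, and the authors' software divides fragments that fit several copies by estimate, so the split is less certain than the sum.

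The promoters of abundant genes were examined for short motifs in the 250 bases before the outermost annotated start of the gene, from RefSeq TAIR10.1. Starts in use in these plants were not mapped. Both strands were searched for the G-box (CACGTG), bound by light-signalling and other bHLH and bZIP factors, the I-box (GATAAG), known from light-regulated promoters, the core of the abscisic acid element (ACGTGGC) and the GCC box (GCCGCC), bound by ethylene response factors. A G-box can share bases with an abscisic acid element. The G-box was in 16.0% of the 100 abundant promoters and in 21.1% of the 57 of photosynthesis, against 5.39% of all 37897 promoters of this length and 7.59% of those of genes with at least 5 FPKM. The I-box was in 24.6% of the photosynthesis promoters against 12.7% of all, and the abscisic acid core in 19.3% against 2.74%. The GCC box, at 1.75% against 1.95%, was not more frequent. These are counts of letters in a fixed window and were not tested. The promoters of RBCS1A, the most abundant RBCS gene, and RBCS2B, which with RBCS1B had the lowest level, are printed because they differ in these letters, 5′ to 3′ along the gene, with G-box and I-box matches in capitals. RBCS1A lies at chr1:25049668-25049917 (minus strand) and RBCS2B at chr5:15382072-15382321 (minus strand).
RBCS1A: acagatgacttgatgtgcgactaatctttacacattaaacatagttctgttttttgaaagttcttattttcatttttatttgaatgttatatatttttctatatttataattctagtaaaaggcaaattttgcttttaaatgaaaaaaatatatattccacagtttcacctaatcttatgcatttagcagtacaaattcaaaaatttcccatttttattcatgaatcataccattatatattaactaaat
RBCS2B: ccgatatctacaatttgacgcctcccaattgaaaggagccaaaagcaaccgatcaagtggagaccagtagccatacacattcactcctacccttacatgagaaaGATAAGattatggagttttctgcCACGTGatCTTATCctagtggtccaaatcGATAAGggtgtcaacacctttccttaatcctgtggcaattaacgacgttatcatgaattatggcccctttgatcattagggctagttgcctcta
The RBCS2B window held a G-box and 3 I-boxes, 1 of these on the other strand. Neither set of letters occurred in this window of RBCS1A, the gene with the higher level. Bases inside the annotated gene or farther upstream were not searched, so the RBCS1A promoter cannot be said to lack these motifs.

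Sorted by function, photosynthesis held a large part of the pool. Each gene was placed in 1 of 21 classes by words in its description, 3 of them for photosynthesis, and the FPKM of a class were divided by those of all genes. The 241 genes of the 3 photosynthesis classes held 27.8%, 26.4% and 27.3% of the FPKM in plants 1, 2 and 3 (27.2% ± 0.686, SD, n = 3). The 27 light-harvesting genes alone held 12.4%, 11.9% and 12.1%, and the 109 genes of photosystems and electron transport held 9.55% ± 0.269. The 105 genes of rubisco, the Calvin cycle and photorespiration held 5.49% ± 0.155.

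The rest of the pool was spread over more genes. The 388 ribosomal protein genes held 9.17%, 8.54% and 8.50%. Redox metabolism and detoxification held 3.69%, 4.08% and 4.24%, lowest in plant 1, and protein turnover 2.95%. Transcription factors were the opposite case to the antenna genes, with 1660 genes and only 1.73% of the FPKM. The 711 genes of defence and wounding held 1.72% ± 0.135, and the cold, dehydration and dormancy class 2.02% ± 0.10. A further 8.21% ± 0.228 came from 4813 genes with no description, and 21.6% from genes whose descriptions fitted no class. Each class had abundant leading genes. UBQ10, a polyubiquitin gene, was at 865, 857 and 1066 FPKM, AAC1, the mitochondrial carrier that exchanges ADP for ATP, at 997, 967 and 1050 FPKM, and PORB, which makes chlorophyllide in the light, at 1680, 1529 and 1628 FPKM. PR5, a defence protein, was at 616, 776 and 896 FPKM, with plant 3 highest.

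**Figure D2:**
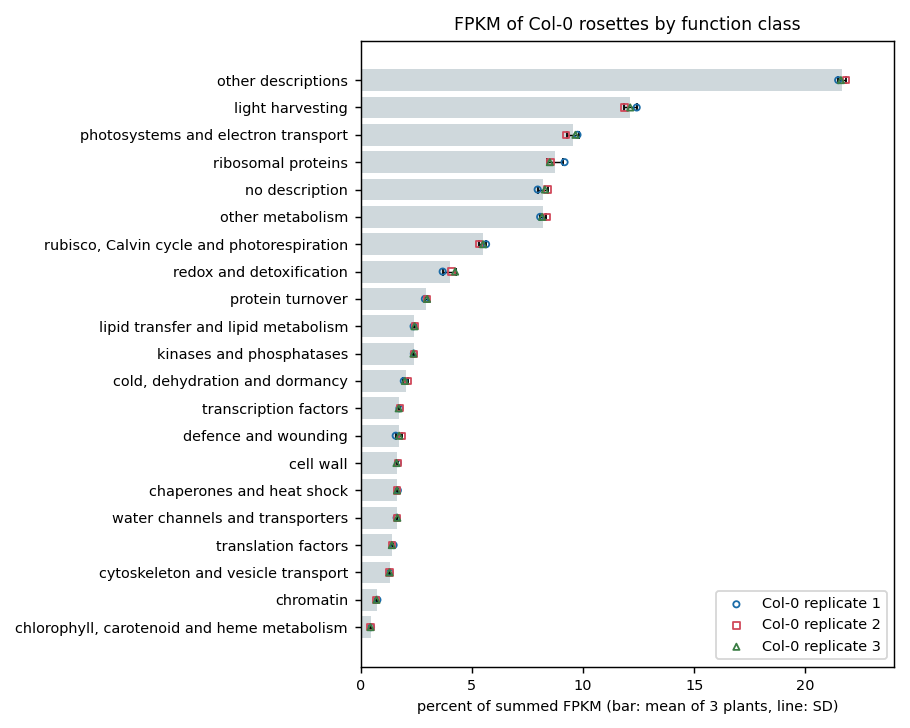
Share of summed FPKM (%) by function class in Col-0, with a point for each Col-0 plant. Light harvesting lies at 11.9% to 12.4% in these plants.

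The function shares of Col-0 were set beside those of the other genotypes, to show where the wild type differed. Photosynthesis held 27.2% ± 0.686 in the 3 Col-0 plants and between 21.98% and 24.7% in the 6 plants of both 35S:KLU lines, and the groups did not overlap. The mean of 35S:KLU minus that of Col-0 was -3.93 percentage points (an exact two-sided permutation test over 84 arrangements gave p = 0.0119, the smallest possible). By the same test, adjusted over the 21 classes, 12 classes differed at an adjusted p of 0.0208 in this exact permutation test, 6 higher and 6 lower in Col-0. Light harvesting was higher in Col-0 (12.1% against 10.02%), as were photosystems (9.55% against 8.42%) and rubisco and the Calvin cycle (5.49% against 4.80%). Defence and wounding was lower in Col-0 (1.72% against 2.41%), as were genes without description (8.21% against 9.20%). The ribosomal share of 8.74% in Col-0 and 8.87% in 35S:KLU was within the spread of the plants (exact permutation p = 0.476). Shares sum to 100, so a lower share of some classes raises others. With a Col-0 plant left out, 2 plants against 6 cannot go below an exact permutation p of 0.0357, and no class passed after adjustment. In klu, photosynthesis held 31.8%, 26.0% and 25.5%, and the 3 Col-0 plants lay between. The klu plant at 31.8%, plant 1, stood apart from the other libraries, and 3 plants against 3 cannot reach p below 0.10.

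The membership of the most abundant set was much the same in every genotype. Of the 100 Col-0 genes, 97 were also among the 100 most abundant of klu, 86 of 35S:KLU1 and 88 of 35S:KLU2, and none was outside the first 200 in any of them. The 100 most abundant genes of each plant, taken anew, held 34.3%, 33.5% and 34.5% of its FPKM in Col-0, between 31.3% and 32.6% in the 6 plants of 35S:KLU, and 38.8%, 32.8% and 32.6% in klu. Levels were then compared gene by gene with limma on log2(FPKM + 1) over all 19660 genes tested, with Benjamini-Hochberg adjustment. The genes were chosen for high levels in the same Col-0 plants that enter this comparison, a choice that by itself favours lower values in the other genotypes.

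Against klu, none of the 100 passed an adjusted p of 0.05 in limma, where 0.061% of all genes did (0.0203% higher and 0.0407% lower in klu), and 8 were under an unadjusted p of 0.05. The lowest adjusted p was 0.324, and none passed without plant 1 of klu either. Against both 35S:KLU lines, 31 of the 100 genes passed, where 19.6% of all genes did. Of these, 22 were lower in 35S:KLU than in Col-0 (background 8.18%) and 9 were higher (background 11.4%), and the median log2 difference of the 100 was -0.18, against 0.03 over all genes. With median-of-ratios scaling 18 passed, 11 of them lower and 7 higher. Of all genes 4452 of 19642 passed with this scaling, a larger share than of the 100. The number was 15, 17 and 16 without plants 1, 2 and 3 of Col-0, where 2202 of 19620, 2198 of 19616 and 2637 of 19604 genes passed. It was 19 without plant 1 of 35S:KLU1 (2955 of 19609 genes) and 18 without plant 3 of 35S:KLU2 (2865 of 19603 genes). It rose to 55 (5612 of 19628 genes) without plant 1 of klu, which is in the fit only through the estimate of spread.

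The genes that were lower in the 35S:KLU lines were mostly photosynthetic, 18 of the 22. Of the 57 photosynthesis genes among the 100, 56 had fitted values below Col-0 and none was called higher. Their median log2 difference was -0.23, against 0.03 over all tested genes. The choice by high Col-0 levels favours this direction, and its part was not tested. The 9 of 18 light-harvesting genes called lower were LHCB1.4, LHCB2.1, LHCB2.2, LHCB2.3, LHCB3, LHCB6, LHCA1, LHCA3 and LHCA4. Of the rubisco and Calvin cycle class 5 of 11 genes were also called lower, and 4 of 28 photosystem genes (14.3%). Of all tested genes 8.18% were called lower. RCA, the chaperone that frees rubisco of inhibitory sugars, had 3547, 3476 and 3538 FPKM in Col-0 and 2184 to 2595 (median 2401) in the 35S:KLU plants. It was lower by a log2 difference of -0.57 (SE 0.10, limma adjusted p = 0.00198). LHCB2.1 had 3954 to 4305 FPKM in Col-0 and 2811 to 3279 (median 3057) in 35S:KLU, a log2 difference of -0.41 (adjusted p = 0.00678). CA1, a carbonic anhydrase, differed by -0.40 and FBA2, a Calvin-cycle aldolase, by -0.38. The groups did not overlap for any of these 4 genes. They were picked from genes already called lower, so this adds no separate evidence, and the share of all genes without overlap was not computed. TGG1 was also lower in 35S:KLU, at 1561 to 1716 FPKM (median 1619) against 2015 to 2118 in Col-0, by -0.35 (adjusted p = 0.00293), as was ACSF, an enzyme of chlorophyll synthesis, by -0.34. None of the 6 cold and dehydration genes passed, where 19.6% of all genes did, so with so few genes this says little.

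The 9 abundant genes that were higher in 35S:KLU included all 3 undescribed genes of the first 40. AT2G25510 had 5155 to 6261 FPKM in Col-0 and 7318 to 9624 (median 8832) in 35S:KLU, a log2 difference of 0.58 (SE 0.10, limma adjusted p = 0.00265). AT3G22235 had 3948 to 4775 FPKM in Col-0 and 5708 to 7037 (median 6466) in 35S:KLU, a difference of 0.55 (adjusted p = 0.0054). AT5G42530 rose by 0.31 (adjusted p = 0.0391). ECS1 was higher by 0.49, PCC1 by 0.41, CAT3 by 0.44, the glutathione transferase GSTF9 by 0.35, the cyclophilin ROC3 by 0.32 and the calcium-binding EF-hand gene AT2G41090 by 0.36.

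**Figure D3:**
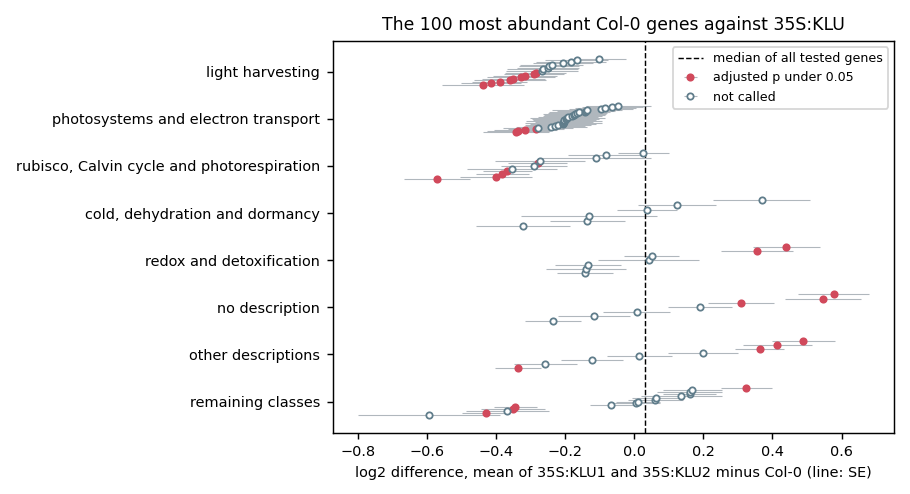
Log2 difference of 35S:KLU minus Col-0 (limma on log2(FPKM + 1), lines for the SE) for the 100 most abundant genes, in rows by class. Points are filled where the adjusted p was under 0.05, and a dashed line marks the median of all tested genes. Most photosynthesis genes lie to the left of 0, as far as RCA at -0.57, and AT2G25510 lies farthest to the right at 0.58.

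From plant to plant, most of the wild-type transcriptome moved very little. Over the 14344 genes with a mean of at least 5 FPKM, the SD of log2(FPKM + 1) over the 3 plants had a median of 0.10. The highest plant was at least 1.5-fold over the lowest for 460 genes (3.21%) and at least 2-fold for 108 (0.753%). Between plants 1 and 2, 53 genes differed by 2-fold or more, between 1 and 3 66 genes, and between 2 and 3 54 genes, so no plant stood apart. FPKM as deposited were slightly higher in plant 3, which was the highest plant for 52.5% of the genes, against 21.8% for plant 1 and 25.7% for plant 2. With the plants scaled to equal FPKM sums this turned round, to 38.5% for plant 1, 34.5% for plant 2 and 27.1% for plant 3. The genes below were chosen by their SD, so the SD is a description without a test. Its value was 0.81 at both rank 40 and rank 41. Each plant gave 1 library, so a difference between plants cannot be told apart from one between libraries.

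**Figure D4:**
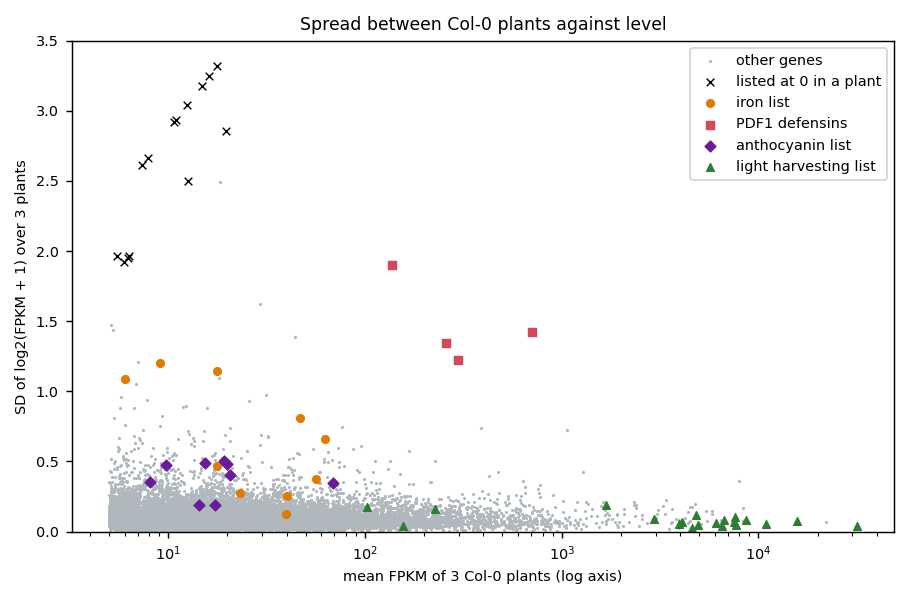
SD of log2(FPKM + 1) over the 3 Col-0 plants against mean FPKM (log axis) for genes with a mean of at least 5 FPKM, with named sets in colour. The median SD is 0.10, the 4 PDF1 defensins lie far above it, and the most abundant genes lie mostly near it.

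The very top of the list was made of genes that were listed at 0 in a plant. These were 14 of the 40 most variable genes, 8 of them at 0 in 2 plants, and their median spliced length was 644 bases against 1667 for all genes of that level. CLE20, a gene for a small signalling peptide, was at 32.9, 0 and 0 FPKM, the auxin-responsive gene SAUR24 at 8.03, 51.2 and 0 FPKM, and AT1G67785 at 53.0, 0 and 0 FPKM. A 0 in an estimated level of a short gene can be a failed estimate. NMT1 (AT3G18000), which methylates phosphoethanolamine on the way to phosphatidylcholine, was at 51.7, 1.64 and 1.63 FPKM. The locus numbered just before it, CPuORF30 (AT3G17998), named in the table as a conserved upstream open reading frame, was at 41.6, 75.5 and 76.6 FPKM, high where NMT1 was low. Their sum, at 93.3, 77.1 and 78.3 FPKM, varied much less, and in the other 9 plants the locus with the larger value also changed from plant to plant. How fragments were divided between these loci was not tested.

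Defensin genes were among the most variable of the genes above 0 in all 3 plants, at ranks 2, 6, 8 and 9 by SD. PDF1.2 and its relatives encode small antifungal peptides, and their transcripts rise when jasmonate and ethylene signal together, through the factor ORA59. PDF1.2 was at 179, 1177 and 766 FPKM in plants 1, 2 and 3. PDF1.2b was at 101.1, 556 and 235 FPKM, PDF1.2c at 19.5, 266 and 126 FPKM, and PDF1.3 at 70.8, 428 and 274 FPKM. All 4 had the order of plant 2, plant 3 and plant 1, although their sequences are alike enough to share fragments. ORA59 was at 2.64, 7.07 and 7.10 FPKM, also lowest in plant 1. Of the 15 jasmonate genes at 5 FPKM or more, 9 had a range of 1.5-fold or more (3.21% of all genes) and 14 were highest in plant 2 (25.7% of all genes), or all 15 with equal FPKM sums (34.5% of all genes), the median SD being 0.33. PDF1.2 and PDF1.2b are among these 15. Basic chitinase CHI-B, chosen after its values were seen, was at 5.14, 15.5 and 6.55 FPKM, and the hevein-like gene HEL, chosen likewise, at 107, 238 and 158 FPKM.

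Salicylic acid defence genes differed less. PR1, the usual marker of that pathway, was at 328, 550 and 544 FPKM, also lowest in plant 1 but about equal in plants 2 and 3. Of the 18 genes of the list 14 were highest in plant 3, where 52.5% of all genes were, and 11 with equal FPKM sums, where 27.1% were. A range of 1.5-fold or more was found for 3 of the 18 (16.7%, against 3.21% of all genes), with a median SD of 0.19 against 0.10.

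The promoters of the 4 defensins are printed because they share the pattern of the plants, with the GCC box (GCCGCC) in capitals. The windows are PDF1.2 at chr5:17907639-17907888 (minus strand), PDF1.2b at chr2:11088873-11089122 (plus strand), PDF1.2c at chr5:17909508-17909757 (minus strand) and PDF1.3 at chr2:11087030-11087279 (plus strand).
PDF1.2: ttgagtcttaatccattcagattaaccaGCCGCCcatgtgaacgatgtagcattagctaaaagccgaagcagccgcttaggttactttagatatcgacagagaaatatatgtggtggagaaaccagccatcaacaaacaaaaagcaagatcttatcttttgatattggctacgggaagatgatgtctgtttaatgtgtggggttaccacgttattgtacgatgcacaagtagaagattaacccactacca
PDF1.2b: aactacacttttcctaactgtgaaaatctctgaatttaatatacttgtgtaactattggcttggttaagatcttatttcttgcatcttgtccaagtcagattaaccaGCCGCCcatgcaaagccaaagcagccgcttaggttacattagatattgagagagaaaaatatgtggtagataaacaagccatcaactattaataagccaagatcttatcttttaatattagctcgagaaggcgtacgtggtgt
PDF1.2c: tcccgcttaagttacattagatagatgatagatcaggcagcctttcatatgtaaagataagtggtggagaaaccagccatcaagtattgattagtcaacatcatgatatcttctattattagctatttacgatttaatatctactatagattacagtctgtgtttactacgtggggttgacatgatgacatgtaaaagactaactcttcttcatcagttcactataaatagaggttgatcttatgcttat
PDF1.3: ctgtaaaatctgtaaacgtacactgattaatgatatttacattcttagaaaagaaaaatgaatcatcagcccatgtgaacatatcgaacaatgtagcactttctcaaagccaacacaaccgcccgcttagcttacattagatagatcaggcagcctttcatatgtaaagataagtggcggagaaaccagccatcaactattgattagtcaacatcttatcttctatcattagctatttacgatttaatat
PDF1.2 and PDF1.2b held a GCC box, 222 to 217 and 143 to 138 bases before the start, and the letters did not occur in these windows of PDF1.2c and PDF1.3. Of the promoters of the 100 most variable genes not listed at 0, 4.0% held it, against 1.95% of all promoters.

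Iron genes varied together, in 2 opposite directions. Plants short of iron are known to switch on the bHLH factors BHLH38, BHLH39, BHLH100 and BHLH101 and the small peptides IMA1 and IMA2, which raise uptake, and to lower ferritins, which store iron. BHLH38 was at 5.99, 33.3 and 13.6 FPKM, BHLH100 at 2.99, 19.0 and 5.23 FPKM, and BHLH39 at 1.75, 11.4 and 4.92 FPKM. IMA1 was at 25.01, 77.7 and 37.8 FPKM, IMA2 at 34.5, 83.5 and 69.1 FPKM, and FRO3, a ferric reductase of mitochondria, at 13.1, 25.1 and 15.1 FPKM. All 6 were highest in plant 2 and lowest in plant 1. The ferritins had the other order at their lower end, with FER1 at 59.6, 41.4 and 69.0 FPKM, FER3 at 43.3, 36.2 and 39.9 FPKM and FER4 at 27.7, 18.6 and 23.5 FPKM, each lowest in plant 2. Of the 10 iron genes at 5 FPKM or more, 7 had a range of 1.5-fold or more, against 3.21% of all genes. Plant 2 was highest for 7 of the 10 (25.7% of all genes), and for 7 with equal FPKM sums (34.5% of all genes). The median SD of 0.56 was the highest of the lists. Seen over the series, BHLH38 lay between 7.83 and 17.1 FPKM in the 9 plants of the other genotypes, inside its wild-type range. The same held for BHLH39 and BHLH100. These bHLH genes were among the most variable of Col-0, a choice that favours this. For IMA1 and IMA2 the lowest of all 12 plants, 19.8 and 29.5 FPKM, were in 35S:KLU and the highest in wild type. FER1 was lowest in wild type and highest in klu, at 83.2 FPKM. AT2G14247, at 13.1, 92.7 and 26.6 FPKM, had the same order of Col-0 plants as BHLH38.

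**Figure D5:**
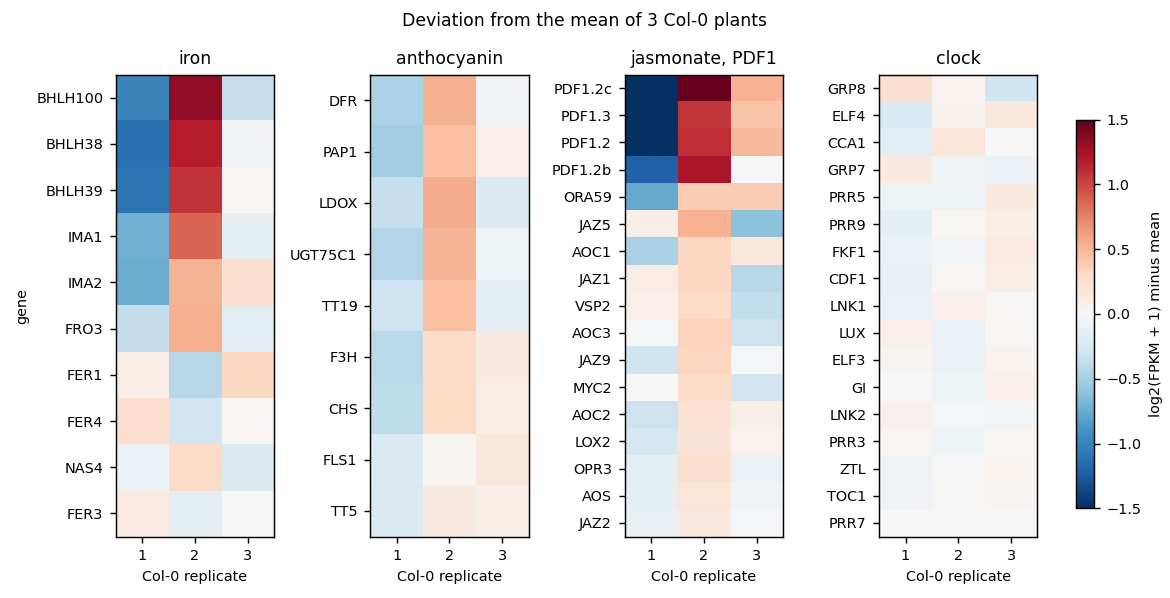
Heat map of the deviation of log2(FPKM + 1) from the mean of the 3 Col-0 plants for genes of the iron, anthocyanin, jasmonate (with the PDF1 defensins) and clock lists, 1 column per plant, with colours saturating at 1.5 in either direction. Plant 2 is high for the iron bHLH and IMA genes and for the defensins, where BHLH38 reaches 33.3 FPKM and PDF1.2 1177 FPKM, while the clock genes barely differ.

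The promoters of 3 iron bHLH genes and of IMA1 follow because their levels moved together, with the G-box (CACGTG) in capitals. The windows are BHLH38 at chr3:21085246-21085495 (minus strand), BHLH39 at chr3:21087711-21087960 (minus strand), BHLH100 at chr2:17199455-17199704 (minus strand) and IMA1 at chr1:17385457-17385706 (plus strand).
BHLH38: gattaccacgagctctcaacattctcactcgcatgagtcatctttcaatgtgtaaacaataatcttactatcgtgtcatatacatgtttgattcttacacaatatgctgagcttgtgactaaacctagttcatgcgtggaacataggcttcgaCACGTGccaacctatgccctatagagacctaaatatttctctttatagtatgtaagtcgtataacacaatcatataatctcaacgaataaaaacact
BHLH39: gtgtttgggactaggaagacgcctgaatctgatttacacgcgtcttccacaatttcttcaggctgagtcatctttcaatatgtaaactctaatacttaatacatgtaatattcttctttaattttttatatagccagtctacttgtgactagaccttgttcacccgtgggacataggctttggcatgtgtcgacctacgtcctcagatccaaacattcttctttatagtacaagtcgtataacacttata
BHLH100: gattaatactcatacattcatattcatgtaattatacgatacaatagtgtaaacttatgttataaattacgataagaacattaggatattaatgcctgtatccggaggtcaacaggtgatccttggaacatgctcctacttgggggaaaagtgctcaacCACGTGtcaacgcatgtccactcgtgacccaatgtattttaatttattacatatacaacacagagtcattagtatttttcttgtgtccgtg
IMA1: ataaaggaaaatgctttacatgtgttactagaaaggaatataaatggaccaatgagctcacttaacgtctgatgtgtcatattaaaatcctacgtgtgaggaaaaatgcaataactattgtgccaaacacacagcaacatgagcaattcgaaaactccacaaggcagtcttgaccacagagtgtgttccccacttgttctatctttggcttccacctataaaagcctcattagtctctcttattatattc
A G-box stood 97 to 92 bases before the start of BHLH38 and 91 to 86 bases before that of BHLH100, and these letters did not occur in the windows of BHLH39 and IMA1. Among the 100 most variable genes not listed at 0, 8.0% of the promoters held a G-box, against 7.59% of those of genes with at least 5 FPKM.

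Anthocyanin genes had the same high plant. The pathway makes the red pigments of stressed leaves, from chalcone synthase (CHS) through dihydroflavonol reductase (DFR) and LDOX, under the factor PAP1. DFR was at 12.9, 27.0 and 17.7 FPKM, LDOX at 14.8, 28.6 and 16.5 FPKM, and PAP1 at 9.94, 20.5 and 15.6 FPKM. CHS was at 51.6, 82.9 and 71.7 FPKM, and the transport gene TT19 at 15.9, 27.8 and 18.18 FPKM. Of the 9 genes at 5 FPKM or more, 8 were highest in plant 2 (25.7% of all genes), and 8 with equal FPKM sums (34.5% of all genes). A range of 1.5-fold or more was found for 7 of the 9, against 3.21% of all genes, with a median SD of 0.40. Of 5 sulfur genes 1 reached 1.5-fold, LSU1, at 5.32, 12.1 and 7.04 FPKM.

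Other variable genes were low in plant 3 in place of plant 1. Some were genes that respond to touch or wounding, which are known to change within minutes of handling. ORA47, an early factor of jasmonate signalling, was at 21.8, 18.8 and 6.46 FPKM, the defence regulator WRKY40 at 24.6, 19.99 and 11.6 FPKM, and the zinc finger gene SZF1 at 55.4, 52.5 and 27.2 FPKM. TCH4, a cell-wall enzyme known from touched plants, was at 24.6, 35.3 and 15.3 FPKM, and CML38, a calmodulin-like protein, at 8.55, 4.67 and 3.39 FPKM. All 5 were lowest in plant 3, and the last 4 are the genes of the rapid stress list with the widest ranges. Of the 18 genes of that list, 6 had a range of 1.5-fold or more (3.21% of all genes) and 4 of 2-fold or more (0.753% of all genes). The list as a whole had no common order. In it 8 genes were highest in plant 1, 5 in plant 2 and 5 in plant 3, against 21.8%, 25.7% and 52.5% of all genes. Its sum was 569, 533 and 499 FPKM, and its median SD was 0.15.

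SAG12, a protease gene that marks old leaves, was at 36.1, 47.1 and 5.11 FPKM in the Col-0 plants and at 0.80 FPKM or less in each of the other 9 plants. ADPG2, a polygalacturonase that separates cells at abscission and fruit opening, reached 1.31, 1.61 and 12.7 FPKM in the Col-0 plants, whereas no other plant exceeded 0.17 FPKM. Each Col-0 plant was thus above every plant of the other genotypes for both genes. Both were among the most variable genes with a mean of at least 5 FPKM in Col-0, a choice that favours higher values there. The share of all genes with such a gap was not computed, and the gap was not tested. In younger plants under longer days, the study reported increased SAG12 in klu by RT-qPCR. Plant 3 had the lowest value of SAG12 but the highest of ADPG2. Of the 10 senescence genes at 5 FPKM or more, SAG12 alone had a range of 1.5-fold, as 3.21% of all genes did. AHP4, a relay protein of the cytokinin pathway, was at 4.96, 13.4 and 18.8 FPKM, and SWEET15, a sucrose exporter of ageing leaves, at 5.76, 0.40 and 1.47 FPKM.

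Several groups were about as steady as the transcriptome at large, where the median SD was 0.10 and 3.21% of genes reached 1.5-fold. None of the 17 clock genes had a range of 1.5-fold, with a median SD of 0.09, nor did any of 20 light-harvesting, 18 rubisco and Calvin cycle, 16 glucosinolate, 12 reference and 8 cell cycle genes. The medians were 0.07, 0.07, 0.10, 0.10 and 0.14, the last, of the cell cycle genes, being above that of all genes. At a share of 3.21%, lists of this size would hold few such genes, so their absence says little. Cell cycle genes had a slight order of their own, with 6 of 8 highest in plant 1, where 21.8% of all genes were, and 8 of 8 with equal FPKM sums, where 38.5% were. Of 11 cold and dehydration genes, 8 were highest in plant 2 (25.7% of all genes), and 8 with equal FPKM sums (34.5% of all genes). Of these 11, 1 reached 1.5-fold. Markers of some cell types differed between plants as well. The 3 epidermis markers summed to 278, 232 and 229 FPKM, all 3 highest in plant 1 (21.8% of all genes). Phloem markers summed to 242, 243 and 281 FPKM, with 3 of 4 highest in plant 3 (52.5% of all genes), the plant with the largest FPKM sum. Guard cell markers, at 47.1, 48.4 and 48.7 FPKM, and xylem markers, at 13.0, 12.7 and 13.0 FPKM, hardly differed. The part of cell types in the variable genes was not tested, and fewer cells of a type cannot be told apart from less RNA per cell.

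The same SD was computed in the other genotypes, whose plants had no part in the choice of the variable genes. Of the 100 most variable Col-0 genes not listed at 0, 84 had a mean of at least 5 FPKM in klu, and 47 of these (56.0%) were in the top 5% by SD there, where 4.87% of all genes were. In 35S:KLU1 it was 49 of 83 (59.0%, background 4.29%), and in 35S:KLU2 also 49 of 83 (59.0%, background 4.28%). The number fell to 26 of 77 (33.8%) without plant 3 of klu and to 31 of 77 (40.3%) without plant 3 of 35S:KLU2. These 100 genes had a median spliced length of 838.5 bases, against 1667 for all genes with at least 5 FPKM. The backgrounds were not matched for length or level, and the part of length and level in these shares was not tested. All 4 PDF1 defensins had a range of 1.5-fold or more in every genotype. The iron list was different: 7 of 10 genes reached that range in Col-0, 5 of 9 in klu, and 2 of 9 in each 35S:KLU line, where the share of all genes was 3.21%, 13.3%, 3.04% and 3.18%. Anthocyanin genes reached it in 7 of 9 cases in Col-0, 5 of 9 in klu, 0 of 10 in 35S:KLU1 and 4 of 11 in 35S:KLU2. The difference in spread between genotypes was not tested. In klu, plant 1 stood apart, and 15 of 18 salicylic acid defence genes had a range of 1.5-fold or more, against 3 of 18 in Col-0.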

How the data were processed

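RNA from 12 individual plants (3 of each genotype) was enriched for poly(A), sequenced from strand-specific libraries, and, per the submitters' processing notes, mapped with STAR to TAIR10 and quantified with RSEM 1.2.22. The authors deposited 1 table of FPKM for 33323 genes, and its columns of fold changes and p-values from their own comparisons were not used. Because the values are not counts, no count model was fitted. Genes that reached 0.5 FPKM in 3 or more libraries (19660) were tested with limma 3.58.1 (R 4.3.3) with a trend on log2(FPKM + 1), in 1 model of all genotypes with Benjamini-Hochberg adjustment (adjusted p under 0.05). Log2 differences on this scale understate changes of low genes. Other steps used Python 3.11.15, pandas 2.3.3, NumPy 2.4.6 and matplotlib 3.10.9, and the statistics were tested on simulated data. Depth is known only relative to the first Col-0 plant, so no counting intervals are given.

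Variability was the SD of log2(FPKM + 1) over the 3 plants for genes with a mean of at least 5 FPKM, and ranges are on the FPKM + 1 scale. Classes came from keywords in the descriptions, and keyword errors found on reading the results were corrected, which moved 1622 genes with 4.27% of the FPKM (1 gene, DRT112, by locus). Named genes were the 40 most abundant, the 40 most variable, up to 5 leading genes of each class and members of 32 lists (308 entries), and others are said to be chosen after their values were seen. Genes among the 100 most abundant that limma called were named as well. The members and lists were chosen with earlier results of these data known. RefSeq TAIR10.1 matched 32835 genes and gave names, lengths and promoters. Alternatives for filter, pseudocount, scaling, samples and left-out plants were computed.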

Additional observations from a re-analysis of the deposited data

How the results depend on the processing

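The number of the 100 most abundant genes called between Col-0 and 35S:KLU was 31 by limma (3846 of all 19660 genes). It was 19 with no filter on low values (3570 of 24434) and 55 with only the compared groups in the fit (5677 of 19492). With median-of-ratios scaling it was 18 (4452 of 19642), and it was 15 to 55 with 1 plant left out. With equal FPKM sums it was 35 (3985 of 19656) and with a pseudocount of 0.1 it was 31 (3743 of 19660). Replicate numbers do not pair the plants (correlations of deviations between same-numbered plants were -0.17 to 0.13). With the replicate block 23 of the 100 genes were called (3518 of all 19660). Against klu, 0 were called in these settings, the replicate block included. The classes that differed from 35S:KLU numbered 12, 0 without any 1 Col-0 plant, where the smallest exact permutation p is 0.0357, and 0 to 13 over all plants left out. Weighting FPKM by spliced length, an alternative chosen after seeing the data, gave the 100 most abundant genes 28.3% of the pool in place of 34.1%, with 82 genes shared, and photosynthesis 23.5% in place of 27.2%. With the keywords as first written, photosynthesis held 26.7%. Genes with a range of at least 2-fold numbered 273 with a minimum mean of 1 FPKM, 31 with 20 FPKM and 55 to 67 with a Col-0 plant left out, in place of 108. Of the 100 most variable genes, 36, 29 and 52 to 69 were shared under these settings. The number of variable genes also in the top 5% elsewhere was 26 to 43 of klu, 36 to 45 of 35S:KLU1 and 31 to 43 of 35S:KLU2 with a plant of that genotype left out, also chosen after seeing the data. Over all recomputations, 84 summary values were counted as unchanged and 25 as moved. Of values of single genes or classes, 470 were counted as unchanged and 29 as moved. Unchanged meant a shift below the replicate SD, a count within 1.5-fold, or the same sign with an exact permutation p under 0.05. For the SD of a gene it meant a shift below that SD itself. These rules are loose, and the mean of a gene with 1 plant left out could not fail them, so the counts say little. Leaving out organelle genes gave no other value, since the table holds none. With 3 plants, an SD is imprecise, and the depth of single libraries limits genes of a few FPKM.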
